A study of Mus musculus with 28 samples.

Results

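Polycomb proteins keep genes silent through marks on histones, trithorax proteins and their partners keep genes active, and DNA methylation adds a further layer that can be written and erased. Measured here are 47 genes of these systems in mouse thymocytes, chosen by gene symbol from a list of Polycomb, Kmt2, Kdm, Asxl, Dnmt3 and Tet genes with their partners. All 47 symbols were found among the 24421 symbols of the count table, and all 47 passed the filter on low counts that kept 14371 genes. RNA was sequenced in 28 libraries of 6 groups: the Ldb1-KO group (by label Lmo2tg; Ldb1-KO, so it carries the Lmo2 transgene together with a deletion of Ldb1), the Lmo2tg group (the transgene with Ldb1 intact) and C57BL/6 wild type (WT), each as a DN4 and a DN2/3 subset. DN2/3 and DN4 are earlier and later thymocytes that lack surface CD4 and CD8. Each stage had 5 Ldb1-KO, 5 Lmo2tg and 4 WT libraries. The series' design text counts 4 Ldb1-KO replicates where the labels give 5. The labels name Lck-Cre, Rag1-Cre and IL-7Ra-Cre lines, but which of them deleted Ldb1 in these samples, the promoter of the transgene and the age of the mice are not given in these sources. No label ties a replicate to an animal, and the p-values therefore reflect the scatter among these samples only.

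Polycomb repressive complex 2 (PRC2) methylates histone H3 through Ezh1 or Ezh2, held together by Eed, Suz12 and the histone chaperones Rbbp4 and Rbbp7. PRC1 reads that mark through Cbx proteins and ubiquitinates histone H2A through Ring1 or Rnf2, each paired with a Pcgf protein such as Bmi1. Against them stand the Kmt2 methyltransferases, while Dnmt3a and Dnmt3b methylate DNA and the Tet enzymes oxidise the methyl group. In the thymus and in leukemia these genes are known for their part in Hoxa gene control, in self-renewal (Bmi1, Kmt2a, Dot1l) and as recurrent sites of mutation (Ezh2, Suz12, Eed, Dnmt3a, Tet2).

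The members that differed most between genotypes at DN2/3 were Cbx7, the largest rise in Lmo2tg, and Tet2 and Pcgf2, the largest falls; Jarid2 passed the test in Lmo2tg against WT and in Ldb1-KO against Lmo2tg at both stages. Their promoter windows are shown for that reason, each as the 250 bases before a RefSeq start (GRCm38.p6), read 5′ to 3′ on the gene's strand. Capitals mark matches to CANNTG, the E-box bound by basic helix-loop-helix partners of Lmo2 in other blood cells, and to GATA, both searched on both strands.
Cbx7, chr15:79932647-79932896, minus strand: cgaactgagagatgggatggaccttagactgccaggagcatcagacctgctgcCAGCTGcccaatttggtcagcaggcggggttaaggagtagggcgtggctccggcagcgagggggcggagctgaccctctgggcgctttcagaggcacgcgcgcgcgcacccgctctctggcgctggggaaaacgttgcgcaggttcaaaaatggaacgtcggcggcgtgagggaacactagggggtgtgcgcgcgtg
Jarid2, first start, chr13:44730524-44730773, plus strand: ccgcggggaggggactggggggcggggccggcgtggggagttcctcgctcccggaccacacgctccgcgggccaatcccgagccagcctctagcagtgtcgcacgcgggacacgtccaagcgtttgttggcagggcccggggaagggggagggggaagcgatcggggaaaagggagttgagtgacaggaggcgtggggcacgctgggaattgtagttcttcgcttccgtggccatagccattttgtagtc
Jarid2, second start, chr13:44731021-44731270, plus strand: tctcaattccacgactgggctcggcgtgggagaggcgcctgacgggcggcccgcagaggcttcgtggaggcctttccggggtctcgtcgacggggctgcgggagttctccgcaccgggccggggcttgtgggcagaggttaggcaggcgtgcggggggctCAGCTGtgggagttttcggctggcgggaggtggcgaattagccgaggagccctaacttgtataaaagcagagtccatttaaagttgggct
Tet2, chr3:133544391-133544640, minus strand: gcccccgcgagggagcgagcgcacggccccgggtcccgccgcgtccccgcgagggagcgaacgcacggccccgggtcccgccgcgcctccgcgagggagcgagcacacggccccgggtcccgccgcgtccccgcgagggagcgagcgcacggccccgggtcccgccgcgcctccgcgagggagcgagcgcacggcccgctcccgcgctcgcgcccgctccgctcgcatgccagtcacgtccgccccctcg
Pcgf2, chr11:97699649-97699898, minus strand: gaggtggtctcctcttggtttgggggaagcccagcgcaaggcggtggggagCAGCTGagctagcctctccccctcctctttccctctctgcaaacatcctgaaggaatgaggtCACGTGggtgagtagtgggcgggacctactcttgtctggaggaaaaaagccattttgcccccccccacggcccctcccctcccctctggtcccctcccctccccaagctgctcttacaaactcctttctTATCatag
Cbx7 had 1 E-box, the second Jarid2 window had 1 and Pcgf2 had 2 with 1 GATA, while the Tet2 window and the first Jarid2 window held neither. Among the 49 windows found for 39 of the 47 members, 53.1% held an E-box and 24.5% a GATA, against 66.2% and 53.6% of all 32851 windows in the same table. The member windows were also richer in CpG, with a median of 21 CpG against 6 and a median of 67.2% G or C against 52.4%. A match describes these letters only. Each window lies inside the span that GENCODE gives its gene (GRCm38: Cbx7 chr15:79915807-79971119, Jarid2 chr13:44729474-44921643, Tet2 chr3:133463679-133545139, Pcgf2 chr11:97688823-97700497), where annotated transcripts also start further upstream.

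Total counts ran from 28.1 to 106.9 M per library, and the 47 members took 0.647 to 0.871% of them. Lmo2 was higher in Lmo2tg than in WT (log2 fold 9.13, adjusted p = 2.5e-15 at DN4, log2 fold 6.91, adjusted p = 4e-14 at DN2/3), and Ldb1 was lower in Ldb1-KO than in Lmo2tg (log2 fold -3.75, adjusted p = 1.5e-07 at DN4, log2 fold -2.02, adjusted p = 0.0001 at DN2/3). The labels call the cells CD4 T cells, whereas the 13 markers of double-negative thymocytes were all detected. Their summed level was 8354 to 14060 CPM (counts per M of a TMM-scaled library total). Cd8a, which these cells should lack, was at 281, 713, 136, 186 and 305 CPM in Ldb1-KO DN4, 742, 345, 217, 252 and 161 CPM in Lmo2tg DN4 and 57.5, 19.7, 27.2 and 29.9 CPM in WT DN4 libraries. The summed level of 9 double-positive and mature T cell markers was 1234 to 2553 CPM in Ldb1-KO DN4, 1157 to 3048 CPM in Lmo2tg DN4 and 602 to 782 CPM in WT DN4, so both transgenic groups lay above WT. The sums of 8 B cell markers in the same order were 13.7 to 23.97, 13.1 to 114 and 11.1 to 14.7 CPM. At DN2/3 the B cell sums were 29.1 to 35.8 CPM in Ldb1-KO, 13.8 to 29.7 CPM in Lmo2tg and 40.3 to 43.6 CPM in WT, so both transgenic groups lay below WT. The 6 erythroid markers at DN4 summed to 6.05 to 29.6 CPM in Ldb1-KO, 7.73 to 30.2 CPM in Lmo2tg and 2.37 to 3.27 CPM in WT, and 10 myeloid markers to 2.09 to 3.29, 2.01 to 10.3 and 0.824 to 1.02 CPM in the same order. The double-negative sums at DN2/3 were 10116 to 11705 CPM in Ldb1-KO, 9794 to 11839 CPM in Lmo2tg and 13415 to 14059.8 CPM in WT. The double-positive and mature T cell sums at DN2/3 were 1143 to 1910 CPM in Ldb1-KO, 1312 to 1997 CPM in Lmo2tg and 916 to 1246 CPM in WT. Lmo2tg thus lay above WT there as well, while Ldb1-KO overlapped with WT. Thymic stroma markers (6 genes) summed to 86.3 to 289 CPM over all libraries. The part of these cells in the member results was not tested, and in bulk RNA fewer cells of a type and less RNA per cell cannot be told apart. The WT libraries also carry names of another pattern than the transgenic ones, so a technical series and the WT genotype cannot be told apart.

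The share of the 47 members that passed the test was set against that of all genes. A member is called changed when its adjusted p in the edgeR quasi-likelihood test, over all 14371 genes, is under 0.05. In Lmo2tg against WT, 16 members were higher and 10 lower at DN4 (55.3% of members, where 52.4% of all genes were called, 28.9% higher and 23.5% lower), and 7 were higher and 5 lower at DN2/3 (25.5%, background 29.5% of all genes, 15.1% higher and 14.4% lower). In Ldb1-KO against Lmo2tg, 2 were higher and 6 lower at DN4 (17%, background 14.6% of all genes, 5.85% higher and 8.71% lower), and 1 was higher and 4 were lower at DN2/3 (10.6%, background 16.1% of all genes, 8.87% higher and 7.22% lower). In Ldb1-KO against WT the counts were 7 and 9 at DN4 (34%, background 32.6% of all genes, 18.2% higher and 14.4% lower) and 3 and 1 at DN2/3 (8.51%, background 9.56% of all genes, 6.98% higher and 2.58% lower). The median log2 fold of the members was 0.07 in Lmo2tg against WT and -0.08 in Ldb1-KO against Lmo2tg at DN4, where the medians of all genes were 0.07 and -0.02. At DN2/3 the member medians in these 2 comparisons were -0.01 and -0.04, and those of all genes 0.01 and -0.01. The comparisons of Lmo2tg with WT and of Ldb1-KO with Lmo2tg share the Lmo2tg libraries, so an Lmo2tg level that stands apart enters both with opposite sign. With upper-quartile factors the split became 4 higher and 7 lower in Lmo2tg against WT at DN2/3, and 2 higher and 3 lower in Ldb1-KO against Lmo2tg at DN2/3. With library totals alone these became 3 and 8, and 4 and 3, and Ldb1-KO against WT at DN4 had 9 higher and 7 lower.

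Single libraries moved some of these counts by more than 1.5 times. The 8 calls in Ldb1-KO against Lmo2tg at DN4 became 5 without Ldb1-KO replicate 5 or Lmo2tg replicate 1 or 5, and 13 without Lmo2tg replicate 4. At DN2/3 the 5 calls became 2 without Ldb1-KO replicate 2 or 5 and 3 without Lmo2tg replicate 3. In Ldb1-KO against WT, the 16 calls at DN4 became 10 without WT replicate 1 and 6 without WT replicate 3, and the 4 calls at DN2/3 became 2 without Ldb1-KO replicate 3 or WT replicate 3 and 1 without WT replicate 1. Transgenic replicates 4 and 5 had lower totals than the others. With these replicates alone 67 of 137 calls of the genes named below were lost, and such losses are not repeated at each gene. The split of the replicates was chosen after seeing the data, and a library left out can be the one furthest from its group. Calls gained below in these ways, and p-values from that split, are thus no independent support.

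**Figure D1:**
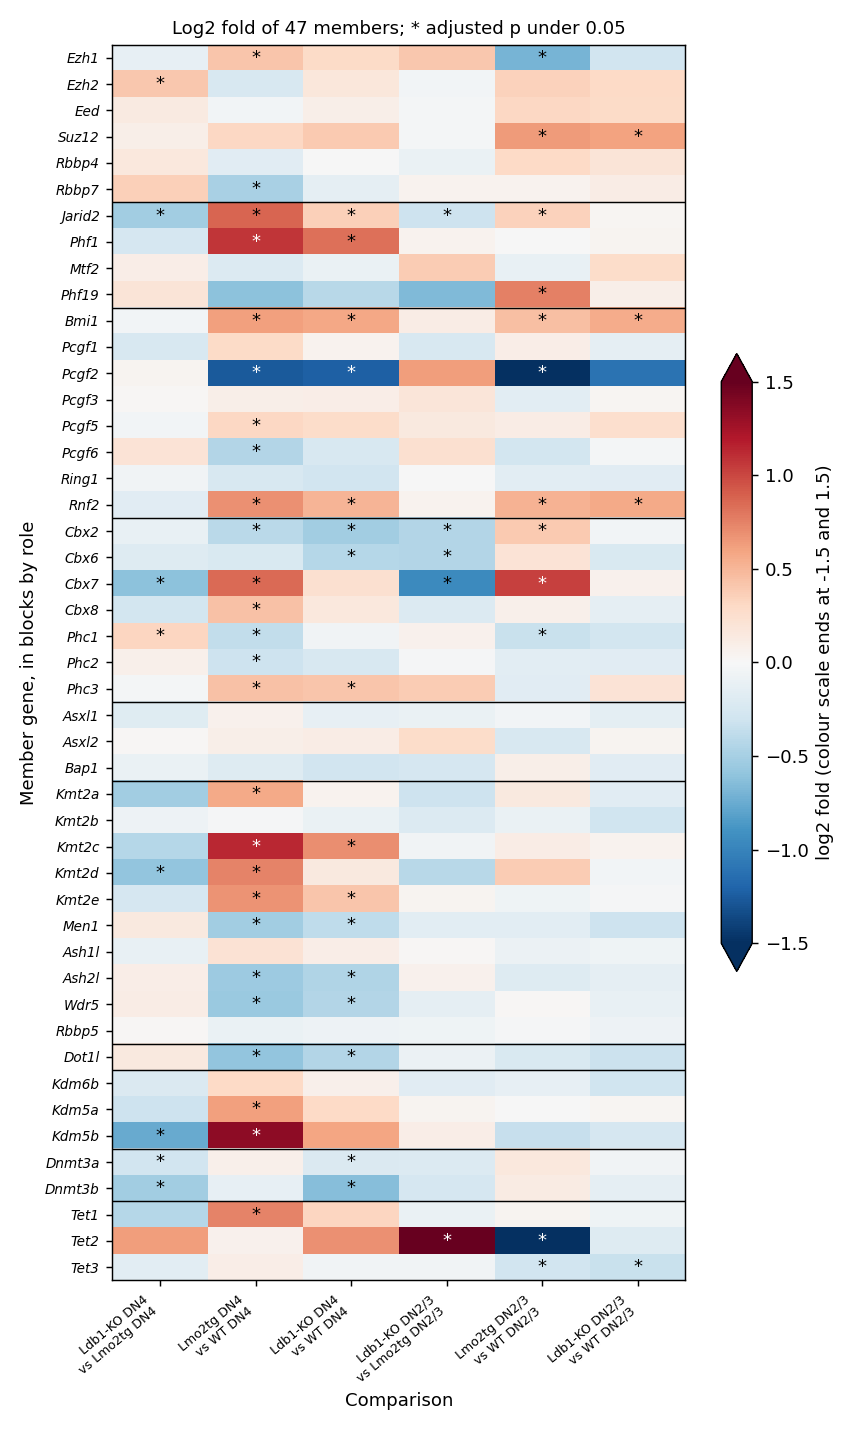
Log2 fold changes of the 47 members (down the page, in blocks by role) in 6 genotype comparisons (across), with red for higher and blue for lower in the first group named and an asterisk at an adjusted p under 0.05. Lmo2tg DN4 against WT DN4 holds the most asterisks, 26, and Ldb1-KO DN2/3 against WT DN2/3 the fewest, 4.

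Levels within a family are compared per kilobase of exon (CPM per kb, mean ± SD). Ezh2 stood above Ezh1, its less active paralogue, in all 6 groups. The ratio of Ezh2 to Ezh1 per kb was 11.7 ± 1.900 in Ldb1-KO DN4, 8.69 ± 3.52 in Lmo2tg DN4 and 12.7 ± 1.62 in WT DN4. At DN2/3 it was 4.28 ± 1.07 in Ldb1-KO, 6.21 ± 3.29 in Lmo2tg and 2.76 ± 0.153 in WT, lower than at DN4 in each genotype and with a wide spread in Lmo2tg. Among the Pcgf subunits Bmi1 was the most abundant and Pcgf2, its close relative, the least. The ratio of Bmi1 to Pcgf2 was 46.4 ± 15.6, 73.2 ± 48.5 and 12.2 ± 1.73 in Ldb1-KO, Lmo2tg and WT DN4, and 19.7 ± 5.79, 36.02 ± 21.4 and 6.01 ± 1.75 in the same genotypes at DN2/3. Cbx2 and Cbx6 stood above Cbx7 and Cbx8. Cbx7 reached 11.9 ± 3.12 CPM per kb in Lmo2tg DN2/3, against 5.83 ± 0.607 in WT DN2/3. Tet3 was the leading Tet gene, and Tet2 the lowest of all 47 members per kb in Lmo2tg DN2/3 (0.434 ± 0.276 CPM per kb) and in WT at both stages (0.817 ± 0.107 at DN4, 1.82 ± 0.178 at DN2/3). The most abundant member per kb in every group was Rbbp7, which other chromatin complexes use as well.

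**Figure D2:**
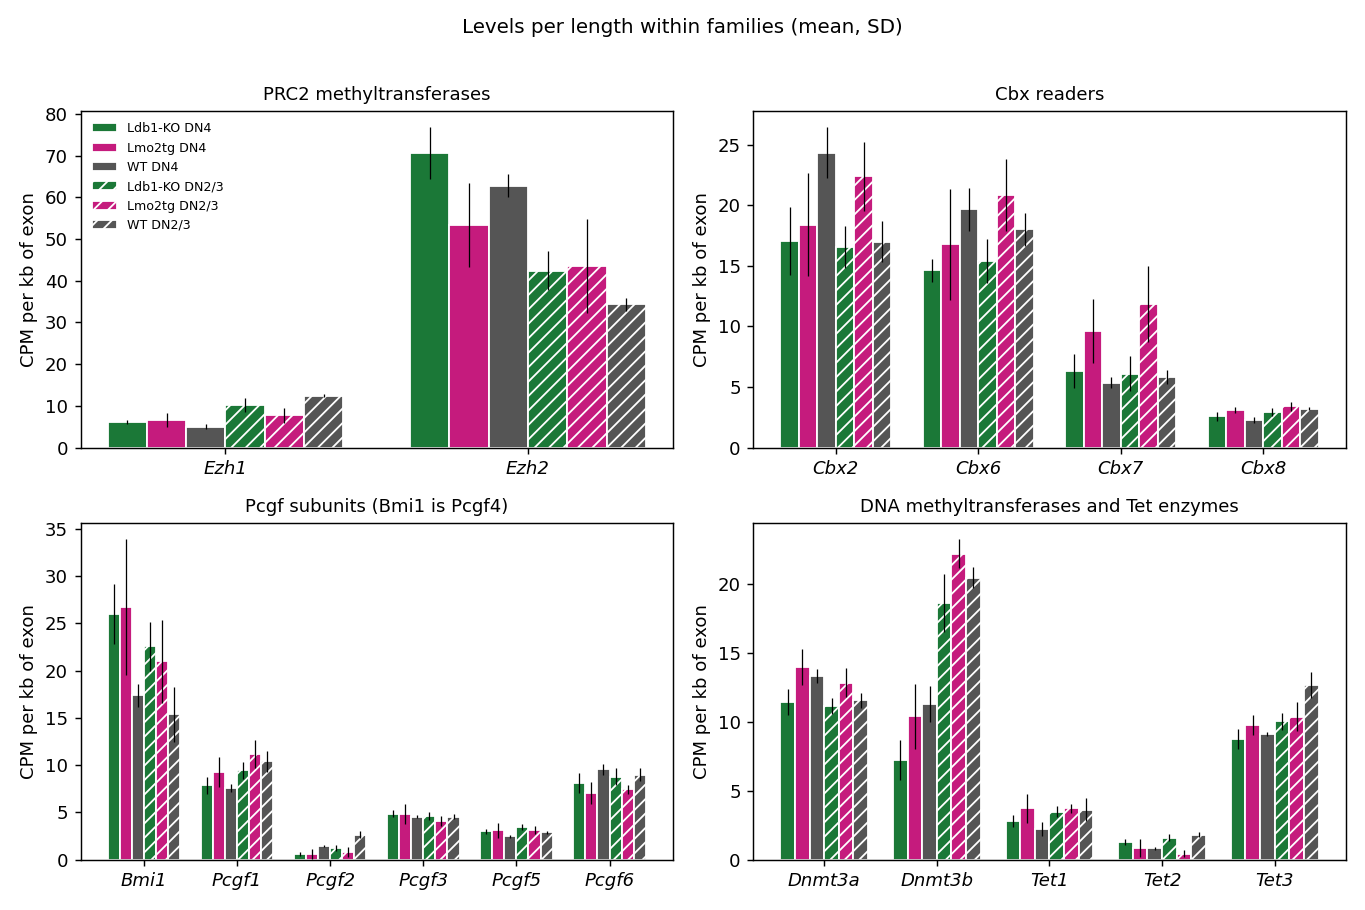
Levels per length in 4 families, as mean CPM per kb of exon with SD (bars and lines) in 6 groups, Ldb1-KO, Lmo2tg and WT at DN4 (plain) and at DN2/3 (hatched). Ezh2 and Bmi1 lead their families in every group, and Dnmt3b stands above Dnmt3a at DN2/3 and below it at DN4.

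Of the 6 PRC2 core subunits, Ezh2, Ezh1 and Rbbp7 were called between genotypes at DN4. Ezh2 had 486, 481, 521, 408 and 464 CPM in the Ldb1-KO, 259.99, 430.3, 395, 376 and 321 CPM in the Lmo2tg and 407, 400.2, 436 and 434 CPM in the WT libraries. All Ldb1-KO libraries but replicate 4 were above the highest Lmo2tg library, and Ezh2 was higher in Ldb1-KO than in Lmo2tg (log2 fold 0.41, SE 0.13, adjusted p = 0.042). That call was lost without Ldb1-KO DN4 replicate 1, 2, 3 or 5 or Lmo2tg DN4 replicate 1 or 5, with no filter on low counts, in a fit of the compared groups alone and with transgenic replicates 1 to 3 only (log2 fold 0.31 to 0.47, adjusted p 0.054 to 0.12). Of 18 proliferation genes, 6 rose and 0 fell in that comparison, where 5.85% of all genes were higher and 8.71% lower. These 18 genes had a median log2 fold of 0.61 against -0.02 over all genes. Their summed level was 9059 to 10022 CPM in Ldb1-KO DN4, 3819 to 10115 CPM in Lmo2tg DN4 and 10469.9 to 11691 CPM in WT DN4, and their part in the Ezh2 difference was not tested.

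At DN4 Ezh1 had 46.7, 44.7, 39.7, 48.7 and 46.3 CPM in the Ldb1-KO, 60.02, 36.3, 58.2, 36.6 and 56.1 CPM in the Lmo2tg and 31.8, 42.2, 35.8 and 38.9 CPM in the WT libraries. Lmo2tg replicates 2 and 4 lay within the WT range and the others above it, and the rise against WT (log2 fold 0.41, SE 0.16, adjusted p = 0.036) was lost without Lmo2tg DN4 replicate 1, 3 or 5 or WT DN4 replicate 1, 3 or 4, with upper-quartile factors, with no filter on low counts, in a fit of the compared groups alone and with a replicate block (log2 fold 0.33 to 0.42, adjusted p 0.0503 to 0.13). Suz12, a scaffold subunit, had 374, 420.1, 458, 319 and 352 CPM in the Ldb1-KO, 319, 452, 450.04, 330.1 and 263 CPM in the Lmo2tg and 289.5, 319, 273 and 292 CPM in the WT libraries. It was called in no genotype comparison at that stage, though its excess in Ldb1-KO over WT (log2 fold 0.39, SE 0.18) passed in a fit of the compared groups alone (log2 fold 0.39, adjusted p = 0.0088) and in 3 other alternatives. Its excess in Lmo2tg over WT passed with the replicate block (log2 fold 0.34, adjusted p = 0.033). Eed, which binds the methyl mark, had 92.2, 102, 109, 86.8 and 104 CPM in the Ldb1-KO, 77.9, 102, 102, 90.2 and 77.01 CPM in the Lmo2tg and 83.7, 87.8, 96.6 and 102 CPM in the WT libraries. All 3 genotypes overlapped. Rbbp7 was lower in Lmo2tg than in WT (log2 fold -0.48, SE 0.14, adjusted p = 0.0059), with no overlap between the libraries. Of the 18 proliferation genes 14 were lower in that comparison, where 23.5% of all genes were lower. The part of the proliferation genes was not tested. Rbbp4 was not called (log2 fold -0.17, SE 0.12). Genes on the opposite strand, Sync among them, overlap 18% of Rbbp4 exon bases, and the sequencing kit does not mark strand.

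At DN2/3 Ezh1 and Suz12 were the core genes called between genotypes. Ezh1 had 91.6, 71.8, 63.5, 66.3 and 87.2 CPM in the Ldb1-KO, 63.98, 39.8, 66.2, 48.1 and 69.01 CPM in the Lmo2tg and 91.3, 96.3, 93.4 and 90.05 CPM in the WT libraries. Every Lmo2tg library was below every WT library, while Ldb1-KO replicate 1 reached the WT range. Ezh1 fell in Lmo2tg (log2 fold -0.69, SE 0.16, adjusted p = 0.0016), and the fall held in every alternative run. Suz12 had 223, 257, 313, 219.7 and 239 CPM in the Ldb1-KO, 224, 379, 227, 266 and 184 CPM in the Lmo2tg and 130.2, 180.4, 171 and 176 CPM in the WT libraries. Every transgenic library was above every WT library, and Suz12 rose in Lmo2tg (log2 fold 0.64, SE 0.18, adjusted p = 0.007) and in Ldb1-KO (log2 fold 0.61, SE 0.18, adjusted p = 0.028) against WT. The difference between Ldb1-KO and Lmo2tg in Suz12 was -0.03, with a 95% interval of -0.37 to 0.31. The Ldb1-KO rise was lost without Ldb1-KO DN2/3 replicate 3 or WT DN2/3 replicate 1, 3 or 4 (log2 fold 0.51 to 0.64, adjusted p 0.052 to 0.13).

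Ezh2 and Eed did not pass the test in Lmo2tg against WT at DN2/3 (adjusted p = 0.074 and 0.054), but both passed with the replicate block and without Lmo2tg DN2/3 replicate 1 or replicate 5, and Eed also in DESeq2 (log2 fold 0.31, adjusted p = 0.043) and with transgenic replicates 1 to 3 only. Ezh2 had 243, 288, 329, 274 and 282 CPM in the Ldb1-KO, 236, 412, 268, 313 and 225 CPM in the Lmo2tg and 217, 225, 239 and 236 CPM in the WT libraries. Lmo2tg replicate 2 was the highest of all. Eed had 68.8, 80.7, 92.1, 70.8 and 74.3 CPM in the Ldb1-KO, 68.4, 102, 79.4, 77.8 and 67.7 CPM in the Lmo2tg and 53.2, 62.9, 69.2 and 68.9 CPM in the WT libraries. Both transgenic groups overlapped with WT in Eed. Rbbp4 and Rbbp7 had log2 folds of 0.29 and 0.05 in the same comparison and were not called.

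Jarid2, a PRC2 partner that helps bring the complex to chromatin, was higher in Lmo2tg than in WT and lower in Ldb1-KO than in Lmo2tg at both stages. At DN4 it had 93.9, 96.2, 85.9, 80.05 and 94.2 CPM in the Ldb1-KO, 137, 140.3, 149, 88.2 and 130.4 CPM in the Lmo2tg and 69.2, 75.1, 65.5 and 71.9 CPM in the WT libraries. Lmo2tg replicate 4 lay within the Ldb1-KO range, and the other Lmo2tg libraries were above every other library. Jarid2 rose in Lmo2tg (log2 fold 0.87, SE 0.11, adjusted p = 6.4e-07), fell in Ldb1-KO against Lmo2tg (log2 fold -0.52, SE 0.10, adjusted p = 0.00077) and remained above WT in Ldb1-KO (log2 fold 0.35, SE 0.11, adjusted p = 0.014). The fall in Ldb1-KO was lost in a fit of the compared groups alone (log2 fold -0.49, adjusted p = 0.063), and the excess of Ldb1-KO over WT was lost without WT DN4 replicate 3 (log2 fold 0.31, adjusted p = 0.061). Jarid2 had 72.5, 66.2, 70.02, 67.5 and 65.8 CPM in the Ldb1-KO, 89.7, 82.2, 82.5, 75.9 and 95.2 CPM in the Lmo2tg and 63.3, 70.5, 64.1 and 70.2 CPM in the WT libraries at DN2/3. Lmo2tg libraries were above all others, with a rise against WT (log2 fold 0.34, SE 0.11, adjusted p = 0.014) and a fall in Ldb1-KO (log2 fold -0.31, SE 0.10, adjusted p = 0.028). That fall was lost without Ldb1-KO DN2/3 replicate 2 or 5 or Lmo2tg DN2/3 replicate 1 or 5, with upper-quartile factors, with library totals alone and with no filter on low counts (log2 fold -0.31 to -0.25, adjusted p 0.0507 to 0.14), and the rise was lost with library totals alone (log2 fold 0.26, adjusted p = 0.11).

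The 3 Polycomb-like proteins, Phf1, Mtf2 and Phf19, which tether PRC2 to DNA, differed in their calls. Phf1 had 43.97, 44.4, 32.1, 50.7 and 56.3 CPM in the Ldb1-KO, 76.1, 35.2, 42.7, 39.9 and 75.9 CPM in the Lmo2tg and 27.8, 23.9, 26.4 and 24.7 CPM in the WT libraries at DN4. Every transgenic library was above every WT library, and Phf1 rose in Lmo2tg (log2 fold 1.07, SE 0.23, adjusted p = 0.00058) and in Ldb1-KO (log2 fold 0.82, SE 0.23, adjusted p = 0.01) against WT. Genes on the opposite strand overlap 39.3% of Phf1 exon bases, mainly Cuta, which was lower in Lmo2tg DN4 (log2 fold -0.44, adjusted p = 0.0061); the kit does not mark strand, so reads of the 2 genes cannot be told apart there. At DN2/3 Phf1 had 55.4, 40.4, 36.8, 56.2 and 63.7 CPM in the Ldb1-KO, 53.3, 27.9, 52.6, 44.7 and 65.4 CPM in the Lmo2tg and 47.8, 44.998, 47.01 and 56.2 CPM in the WT libraries. All groups overlapped there. At DN4 Phf19 had 46.9, 38.8, 37.3, 47.7 and 41.7 CPM in the Ldb1-KO, 19.8, 46.3, 19.7, 63.3 and 36.1 CPM in the Lmo2tg and 62.2, 52.99, 55.99 and 55.7 CPM in the WT libraries. All Lmo2tg libraries except replicate 4 were below every WT library, and so were all Ldb1-KO libraries. The Lmo2tg difference (log2 fold -0.62, SE 0.26, adjusted p = 0.053) missed the threshold; it passed with RLE (log2 fold -0.63, adjusted p = 0.047), upper-quartile or library-total factors, with the replicate block, in DESeq2 (log2 fold -0.63, adjusted p = 0.037), with transgenic replicates 1 to 3 only (log2 fold -1.03, adjusted p = 0.0032) and without Lmo2tg DN4 replicate 2 or replicate 4 (log2 fold -0.90, adjusted p = 0.0034). Phf19 had 17.4, 19.2, 21.9, 24.9 and 17.1 CPM in the Ldb1-KO, 19.998, 40.6, 23.8, 49.9 and 25.6 CPM in the Lmo2tg and 22.96, 17.5, 17.4 and 17.8 CPM in the WT libraries at DN2/3. Lmo2tg replicates 2 and 4 were the highest, and the rise in Lmo2tg (log2 fold 0.76, SE 0.27, adjusted p = 0.035) was lost without Lmo2tg DN2/3 replicate 2 or 4 or WT DN2/3 replicate 2, 3 or 4, with upper-quartile factors, with library totals alone and with transgenic replicates 1 to 3 only (log2 fold 0.54 to 0.73, adjusted p 0.0511 to 0.13). Mtf2 was called in no genotype comparison, with log2 folds between -0.20 and 0.39.

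Bmi1 and Rnf2, the partners that form the ubiquitin ligase of canonical PRC1, were higher than WT in both transgenic groups at both stages. At DN4 Bmi1 had 97.5, 113, 119.7, 91.7 and 93.8 CPM in the Ldb1-KO, 111, 141, 123, 74.7 and 79.5 CPM in the Lmo2tg and 67.8, 74.2, 63.1 and 71.3 CPM in the WT libraries. Rnf2 had 86.1, 106, 113, 84.9 and 87.8 CPM in the Ldb1-KO, 103, 110.2, 154, 77.5 and 92.8 CPM in the Lmo2tg and 66.6, 76.4, 62.7 and 61.8 CPM in the WT libraries. No transgenic library overlapped with WT in either gene. Bmi1 rose in Lmo2tg (log2 fold 0.62, SE 0.17, adjusted p = 0.0037) and in Ldb1-KO (log2 fold 0.58, SE 0.17, adjusted p = 0.012) against WT, and Rnf2 rose in Lmo2tg (log2 fold 0.69, SE 0.15, adjusted p = 0.00051) and in Ldb1-KO (log2 fold 0.51, SE 0.15, adjusted p = 0.011).

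At DN2/3 Bmi1 had 80.6, 94.9, 105, 79.9 and 88.3 CPM in the Ldb1-KO, 84.01, 112, 80.7, 65.2 and 74.97 CPM in the Lmo2tg and 45.4, 66.8, 60.3 and 71.96 CPM in the WT libraries. Rnf2 had 90.1, 90.6, 112, 79.4 and 90.5 CPM in the Ldb1-KO, 87.2, 105, 98.8, 79.004 and 77.6 CPM in the Lmo2tg and 54.4, 64.9, 63.7 and 66.01 CPM in the WT libraries. Rnf2 again did not overlap with WT and rose in Lmo2tg (log2 fold 0.53, SE 0.15, adjusted p = 0.0077) and in Ldb1-KO (log2 fold 0.57, SE 0.15, adjusted p = 0.013). Bmi1 overlapped with WT in Lmo2tg through replicate 4, and rose in Lmo2tg (log2 fold 0.45, SE 0.17, adjusted p = 0.046) and in Ldb1-KO (log2 fold 0.55, SE 0.17, adjusted p = 0.037). Between Ldb1-KO and Lmo2tg neither gene was called, with 95% intervals of -0.36 to 0.28 for Bmi1 and -0.45 to 0.11 for Rnf2 at DN4 and of -0.22 to 0.43 and -0.24 to 0.33 at DN2/3. The Bmi1 rise in Lmo2tg at DN2/3 was lost without Lmo2tg DN2/3 replicate 1, 2 or 3 or WT DN2/3 replicate 1, 2 or 3, with upper-quartile factors, with library totals alone, with no filter on low counts and in a fit of the compared groups alone (log2 fold 0.32 to 0.49, adjusted p 0.055 to 0.18). The Bmi1 rise in Ldb1-KO was lost at DN2/3 without Ldb1-KO DN2/3 replicate 2, 3 or 5 or WT DN2/3 replicate 1, 2 or 3 (log2 fold 0.43 to 0.60, adjusted p 0.056 to 0.17), and at DN4 without WT DN4 replicate 3 (log2 fold 0.52, adjusted p = 0.0514). The Rnf2 rise in Ldb1-KO at DN2/3 was lost without WT DN2/3 replicate 1 (log2 fold 0.51, adjusted p = 0.065). Of the 101-base stretches of Bmi1 transcripts, 6.4% also occur in Gm5946, where counts could be split.

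Pcgf2, the alternative to Bmi1 in the same complexes, went the other way. At DN4 it had 2.603, 2.37, 2.97, 1.69 and 1.15 CPM in the Ldb1-KO, 0.965, 1.29, 0.891, 5.15 and 2.34 CPM in the Lmo2tg and 4.85, 4.79, 5.75 and 4.92 CPM in the WT libraries. Lmo2tg replicate 4 reached the WT range and the other transgenic libraries were below it. Pcgf2 was lower in Lmo2tg (log2 fold -1.26, SE 0.43, adjusted p = 0.015) and in Ldb1-KO (log2 fold -1.23, SE 0.42, adjusted p = 0.03) than in WT. Pcgf2 had 5.74, 4.66, 4.87, 3.48 and 2.74 CPM in the Ldb1-KO, 1.17, 1.96, 2.17, 5.94 and 2.86 CPM in the Lmo2tg and 10.9, 7.82, 9.46 and 8.98 CPM in the WT libraries at DN2/3. No transgenic library reached the lowest WT library, and the fall in Lmo2tg (log2 fold -1.73, SE 0.43, adjusted p = 0.0028) held in every alternative run. The Ldb1-KO difference from WT at DN2/3 was not called. It passed in a fit of the compared groups alone (log2 fold -1.10, adjusted p = 0.0032). With transgenic replicates 1 to 3 only it also passed (log2 fold -0.86, adjusted p = 0.014), as with replicates 4 and 5 only (log2 fold -1.58, adjusted p = 0.011). In transgenic replicates 1 to 3 alone the DN4 difference between Lmo2tg and WT was -2.32 (adjusted p = 5.6e-07), and in replicates 4 and 5 it was -0.44 (adjusted p = 0.31). The Lmo2tg call at DN4 was lost in a fit of the compared groups alone (log2 fold -1.28, adjusted p = 0.067), and the Ldb1-KO call without Ldb1-KO DN4 replicate 4 or 5 or WT DN4 replicate 3 (log2 fold -1.17 to -1.10, adjusted p 0.053 to 0.072).

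Of the remaining PRC1 core members, Pcgf5 rose (log2 fold 0.32, adjusted p = 0.037) and Pcgf6 fell (log2 fold -0.44, adjusted p = 0.0021) in Lmo2tg against WT at DN4. Pcgf1, Pcgf3 and Ring1, the second ubiquitin ligase, were called in no genotype comparison. Together the 8 PRC1 core genes had no call in Ldb1-KO against Lmo2tg at either stage, with log2 folds from -0.24 to 0.20 at DN4 and from -0.24 to 0.63 at DN2/3. The share of all genes called in that comparison was also low, 14.6% at DN4 and 16.1% at DN2/3. For Pcgf2 the replicates gave opposite values: at DN4 its log2 fold in Ldb1-KO against Lmo2tg was 1.35 (adjusted p = 0.0013) in replicates 1 to 3, -1.40 (adjusted p = 0.044) in replicates 4 and 5 and 0.04 in all. At DN2/3 it was 1.52 (adjusted p = 0.00021) in replicates 1 to 3 and -0.49 (adjusted p = 0.53) in replicates 4 and 5. This split was chosen after seeing the data, so its p-values are no test of a difference between the replicates.

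Cbx7, a PRC1 reader subunit linked to stem cell self-renewal, had the largest rise of any member in Lmo2tg at DN2/3. At DN4 Cbx7 had 34.1, 44.05, 49.6, 47.9 and 29.1 CPM in the Ldb1-KO, 52.7, 44.7, 57.5, 89.03 and 68.9 CPM in the Lmo2tg and 35.9, 38.2, 33.4 and 31.3 CPM in the WT libraries. Lmo2tg libraries were above WT without overlap and overlapped with Ldb1-KO. It rose in Lmo2tg (log2 fold 0.85, SE 0.21, adjusted p = 0.0015) and fell in Ldb1-KO against Lmo2tg (log2 fold -0.61, SE 0.19, adjusted p = 0.033). In transgenic replicates 1 to 3 the Ldb1-KO difference at DN4 was -0.26 (adjusted p = 0.34), and in replicates 4 and 5 it was -1.04 (adjusted p = 0.012). Replicates 4 and 5 were the Lmo2tg libraries with the highest Cbx7, and the split was chosen after seeing the data. A larger fall there was built in and is no test. The DN4 fall was also lost without Ldb1-KO DN4 replicate 1, 2 or 5 or Lmo2tg DN4 replicate 4 or 5, in a fit of the compared groups alone and with transgenic replicates 1 to 3 only (log2 fold -0.64 to -0.26, adjusted p 0.052 to 0.34). At DN2/3 Cbx7 had 43.9, 35.2, 51.2, 40.9 and 26.5 CPM in the Ldb1-KO, 60.7, 52.2, 81.7, 101 and 89.3 CPM in the Lmo2tg and 43.4, 37.8, 34.8 and 35.2 CPM in the WT libraries. Each Lmo2tg library was above every Ldb1-KO and WT library. Cbx7 rose in Lmo2tg (log2 fold 1.03, SE 0.21, adjusted p = 0.00045), fell in Ldb1-KO against Lmo2tg (log2 fold -0.96, SE 0.19, adjusted p = 0.0008), and differed from WT in Ldb1-KO by 0.07 (95% interval -0.35 to 0.48). Both calls held in every alternative run at DN2/3. The Cbx7 promoter window printed first holds 1 E-box and 23 CpG.

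Cbx2 and Cbx6 are readers of the same family. At DN4 Cbx2 had 74.3, 58.7, 64.1, 89.6 and 75.6 CPM in the Ldb1-KO, 58.1, 75.9, 63.9, 99.6 and 93.7 CPM in the Lmo2tg and 98.8, 95.9, 104 and 116 CPM in the WT libraries. It was lower in Lmo2tg (log2 fold -0.41, SE 0.14, adjusted p = 0.018) and in Ldb1-KO (log2 fold -0.52, SE 0.14, adjusted p = 0.008) than in WT. The Lmo2tg call was lost without Lmo2tg DN4 replicate 1 or 3 or WT DN4 replicate 4 and in a fit of the compared groups alone (log2 fold -0.43 to -0.32, adjusted p 0.052 to 0.073). Cbx6 had 160.3, 147, 159, 167 and 142 CPM in the Ldb1-KO, 118, 168, 167, 252 and 185 CPM in the Lmo2tg and 226, 182, 214 and 213 CPM in the WT libraries. It was lower in Ldb1-KO than in WT (log2 fold -0.43, SE 0.14, adjusted p = 0.024). This was lost without Ldb1-KO DN4 replicate 2 or WT DN4 replicate 1 or 3 (log2 fold -0.43 to -0.40, adjusted p 0.051 to 0.055). Cbx8 rose in Lmo2tg against WT at DN4 (log2 fold 0.44, adjusted p = 0.0053).

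At DN2/3 both genes fell in Ldb1-KO against Lmo2tg. Cbx2 had 71.3, 63.6, 67.4, 82.5 and 67.3 CPM in the Ldb1-KO, 81.8, 82.4, 103, 105 and 104 CPM in the Lmo2tg and 80.9, 67.01, 65.8 and 75.4 CPM in the WT libraries. Ldb1-KO replicate 4 was inside the Lmo2tg range. Cbx6 had 171, 161, 184, 169 and 133 CPM in the Ldb1-KO, 185, 194, 251, 252 and 224 CPM in the Lmo2tg and 203, 174, 185 and 204 CPM in the WT libraries. Ldb1-KO and Lmo2tg did not overlap. The falls were log2 fold -0.44, SE 0.13, adjusted p = 0.023 for Cbx2 and log2 fold -0.44, SE 0.13, adjusted p = 0.025 for Cbx6. The Cbx2 fall was lost without Ldb1-KO DN2/3 replicate 2, 3 or 5 or Lmo2tg DN2/3 replicate 3, 4 or 5 (log2 fold -0.42 to -0.40, adjusted p 0.0514 to 0.071), and the Cbx6 fall without Ldb1-KO DN2/3 replicate 2 or 5 or Lmo2tg DN2/3 replicate 3 or 4 and with transgenic replicates 1 to 3 only (log2 fold -0.43 to -0.29, adjusted p 0.056 to 0.19). Against WT at DN2/3, Cbx2 rose in Lmo2tg (log2 fold 0.40, SE 0.14, adjusted p = 0.034), a call that was lost without Lmo2tg DN2/3 replicate 3, 4 or 5 or WT DN2/3 replicate 2, 3 or 4, with upper-quartile factors, with library totals alone and with transgenic replicates 1 to 3 only (log2 fold 0.31 to 0.42, adjusted p 0.052 to 0.1).

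**Figure D3:**
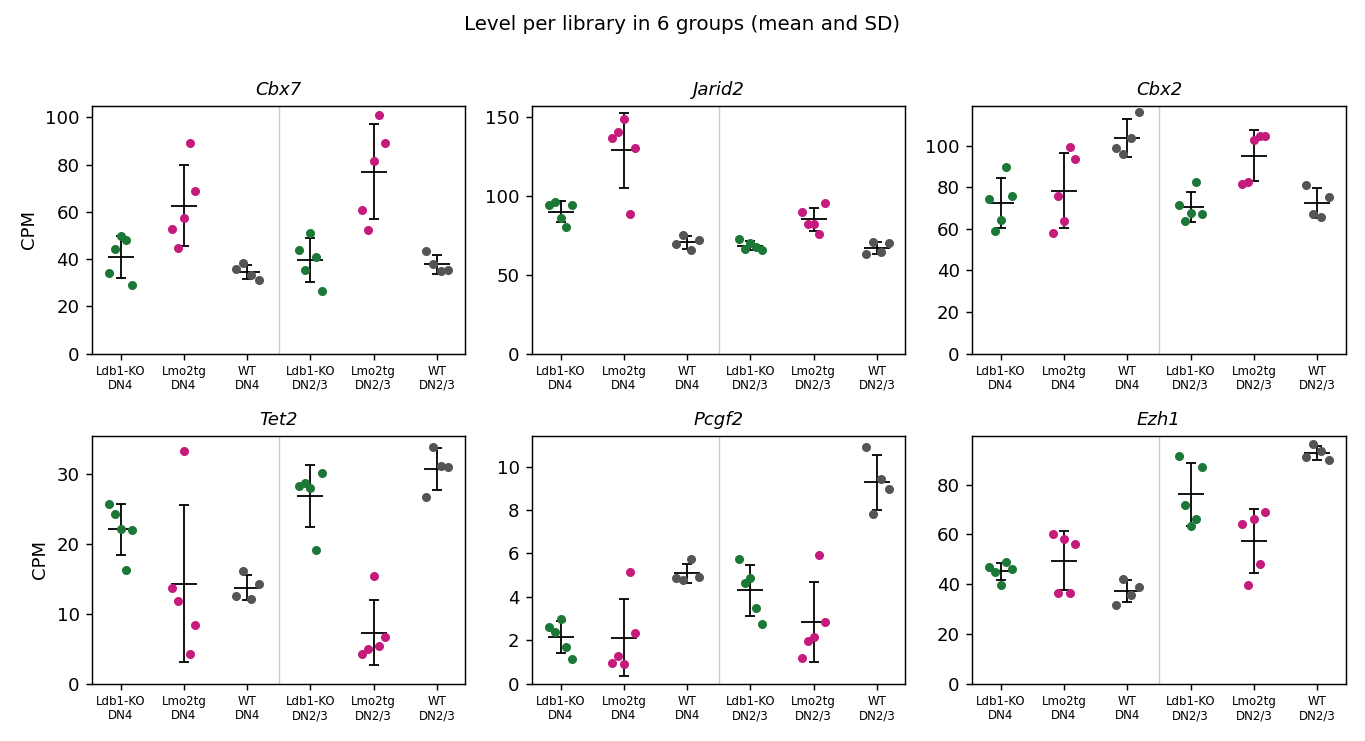
CPM of Cbx7, Jarid2, Cbx2, Tet2, Pcgf2 and Ezh1 in each library (points) of the 6 groups, with the mean and SD (lines). Cbx7 in Lmo2tg DN2/3 lies between 52.2 and 101 CPM, above all Ldb1-KO and WT DN2/3 libraries, and Tet2 in Lmo2tg DN2/3 lies between 4.21 and 15.5 CPM, below all of them.

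Phc1, a polyhomeotic subunit that lets PRC1 particles join, was lower in Lmo2tg than in WT at both stages. It had 67.9, 65.9, 59.5, 68.3 and 70.4 CPM in the Ldb1-KO, 48.6, 53.4, 41.1, 58.7 and 63.4 CPM in the Lmo2tg and 69.5, 63.04, 71.3 and 70.9 CPM in the WT libraries at DN4. It fell in Lmo2tg (log2 fold -0.37, SE 0.10, adjusted p = 0.0036) and was higher in Ldb1-KO than in Lmo2tg (log2 fold 0.32, SE 0.10, adjusted p = 0.023). Phc1 had 53.6, 50.5, 50.5, 55.2 and 47.9 CPM in the Ldb1-KO, 41.4, 48.6, 52.6, 49.5 and 55.3 CPM in the Lmo2tg and 70.4, 56.6, 60.5 and 61.7 CPM in the WT libraries at DN2/3. Lmo2tg and WT did not overlap (log2 fold -0.33, SE 0.10, adjusted p = 0.014). The DN4 difference between Ldb1-KO and Lmo2tg was lost without Lmo2tg DN4 replicate 1 or 3 and in a fit of the compared groups alone (log2 fold 0.25 to 0.35, adjusted p 0.057 to 0.15), and the DN2/3 fall without WT DN2/3 replicate 1 (log2 fold -0.27, adjusted p = 0.069). Phc2 fell (log2 fold -0.31, adjusted p = 0.048) and Phc3 rose (log2 fold 0.44, adjusted p = 0.02) in Lmo2tg against WT at DN4, and Phc3 also rose in Ldb1-KO against WT (log2 fold 0.42, adjusted p = 0.042). The deubiquitinase Bap1 and its partners Asxl1 and Asxl2, which remove the PRC1 mark, were called in no genotype comparison. Their log2 folds lay between -0.29 and 0.28.

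Among the trithorax genes and their partners, calls were made at DN4. In Lmo2tg against WT, 7 of these 10 genes were called at DN4, with 4 higher and 3 lower, and 0 at DN2/3, where 1 had an unadjusted p under 0.05. Of all genes, 52.4% were called in that comparison at DN4 and 29.5% at DN2/3. The genes that rose at DN4 were Kmt2a, Kmt2c, Kmt2d and Kmt2e, all large Kmt2 family genes, and those that fell were Wdr5 and Ash2l, shared core subunits of the Kmt2 complexes, and Men1, which encodes menin, a partner of Kmt2a and Kmt2b.

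Kmt2c, a methyltransferase of enhancers, had 193, 187, 191, 135 and 171 CPM in the Ldb1-KO, 349, 207, 291, 116 and 216 CPM in the Lmo2tg and 97.4, 117, 100.4 and 118 CPM in the WT libraries at DN4. The Lmo2tg libraries were above every other library except for replicate 4, which lay at the WT level. Kmt2c rose in Lmo2tg (log2 fold 1.13, SE 0.23, adjusted p = 0.00028) and in Ldb1-KO (log2 fold 0.70, SE 0.22, adjusted p = 0.021) against WT. The Ldb1-KO rise was lost without WT DN4 replicate 1 or 3 (log2 fold 0.63 to 0.65, adjusted p 0.068 to 0.07). Kmt2c had 248, 201, 215, 172 and 261 CPM in the Ldb1-KO, 327, 186, 237, 152 and 236 CPM in the Lmo2tg and 168, 212, 209.6 and 255 CPM in the WT libraries at DN2/3. All groups overlapped there.

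Kmt2d, the close relative of Kmt2c, had 607, 349, 496, 528 and 489 CPM in the Ldb1-KO, 761, 683, 756, 712 and 824 CPM in the Lmo2tg and 453, 376, 468 and 493 CPM in the WT libraries at DN4. Every Lmo2tg library was above every other library. It rose in Lmo2tg (log2 fold 0.74, SE 0.16, adjusted p = 0.00045) and was lower in Ldb1-KO than in Lmo2tg (log2 fold -0.60, SE 0.15, adjusted p = 0.0065). The Ldb1-KO difference was lost with transgenic replicates 1 to 3 only (log2 fold -0.58, adjusted p = 0.088). Kmt2d had 1008, 672, 679.6, 739 and 856 CPM in the Ldb1-KO, 1302, 774, 1119, 915 and 1156 CPM in the Lmo2tg and 757, 705, 759 and 1021 CPM in the WT libraries at DN2/3. It was not called there, but its fall in Ldb1-KO against Lmo2tg (log2 fold -0.41, SE 0.15, adjusted p = 0.054) passed in 5 alternatives, DESeq2 among them (log2 fold -0.40, adjusted p = 0.041). Kmt2a, which sustains Hoxa expression in blood progenitors, had 361, 276, 391, 375 and 309 CPM in the Ldb1-KO, 493, 350.4, 667, 377 and 571 CPM in the Lmo2tg and 319, 328, 305 and 372 CPM in the WT libraries at DN4. Lmo2tg replicates 1, 3 and 5 were above all other libraries. Its rise in Lmo2tg (log2 fold 0.57, SE 0.20, adjusted p = 0.017) was lost without Lmo2tg DN4 replicate 3 or WT DN4 replicate 3 (log2 fold 0.44 to 0.52, adjusted p 0.055 to 0.066). Kmt2a had 759, 619.9, 577, 584 and 782 CPM in the Ldb1-KO, 1152, 524, 861, 634 and 962 CPM in the Lmo2tg and 674, 682, 689.9 and 941 CPM in the WT libraries at DN2/3. WT replicate 4 stood above the other WT libraries. Kmt2e, a family member without known methyltransferase activity, rose against WT at DN4 in Ldb1-KO (log2 fold 0.42, adjusted p = 0.033) and in Lmo2tg (log2 fold 0.67, adjusted p = 0.00062), but 9.3% of its exon bases overlap Srpk2 on the other strand.

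Wdr5 had 129, 122, 123, 152 and 143 CPM in the Ldb1-KO, 90.5, 138, 91.4, 167 and 131 CPM in the Lmo2tg and 183, 167, 189.95 and 185 CPM in the WT libraries at DN4. WT libraries were the highest without overlap, and Wdr5 was lower in Lmo2tg (log2 fold -0.55, SE 0.13, adjusted p = 0.00088) and in Ldb1-KO (log2 fold -0.44, SE 0.13, adjusted p = 0.012). Ash2l had 102, 109, 113, 105 and 90.4 CPM in the Ldb1-KO, 73.8, 98.1, 95.4, 125 and 94.05 CPM in the Lmo2tg and 149, 148, 147 and 124 CPM in the WT libraries. Lmo2tg replicate 4 was just above the lowest WT library. Ash2l was lower in Lmo2tg (log2 fold -0.54, SE 0.10, adjusted p = 0.00014) and in Ldb1-KO (log2 fold -0.45, SE 0.10, adjusted p = 0.0027). Men1 had 105, 88.03, 85.96, 135 and 119.6 CPM in the Ldb1-KO, 80.2, 93.9, 73.3, 123 and 112 CPM in the Lmo2tg and 134, 118, 156 and 148 CPM in the WT libraries. Both transgenic groups reached into the WT range. Men1 was lower in Lmo2tg (log2 fold -0.53, SE 0.14, adjusted p = 0.0039) and in Ldb1-KO (log2 fold -0.38, SE 0.14, adjusted p = 0.045).

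At DN2/3 Wdr5 had 117, 126, 115, 139.7 and 125 CPM in the Ldb1-KO, 130.3, 145, 126, 141 and 138 CPM in the Lmo2tg and 145, 123, 134 and 134 CPM in the WT libraries. Ash2l had 107.2, 111, 113, 103 and 98.4 CPM in the Ldb1-KO, 102, 111, 104, 99.4 and 94.7 CPM in the Lmo2tg and 120.1, 123, 121 and 103 CPM in the WT libraries. Men1 had 96.1, 97.9, 91.8, 126 and 106.8 CPM in the Ldb1-KO, 109, 103, 119, 123 and 122 CPM in the Lmo2tg and 142, 108, 125 and 140.01 CPM in the WT libraries. None of the 3 was called there. At DN4 the Men1 call in Ldb1-KO was lost without Ldb1-KO DN4 replicate 1, 2 or 3 or WT DN4 replicate 1, 3 or 4 and with library totals alone (log2 fold -0.42 to -0.31, adjusted p 0.055 to 0.12). Dot1l, which methylates the core of histone H3 and works with Kmt2a fusions in leukemia, followed the same course. It had 182, 151, 144, 197 and 181 CPM in the Ldb1-KO, 127, 159.8, 112, 198 and 174 CPM in the Lmo2tg and 229.9, 202, 256 and 239 CPM in the WT libraries at DN4. It was lower in Lmo2tg (log2 fold -0.59, SE 0.14, adjusted p = 0.00098) and in Ldb1-KO (log2 fold -0.44, SE 0.14, adjusted p = 0.017) than in WT, with no overlap. The Ldb1-KO call was lost without Ldb1-KO DN4 replicate 3 or WT DN4 replicate 3 (log2 fold -0.40 to -0.38, adjusted p 0.0504 to 0.055). Dot1l had 130.3, 146, 123, 171 and 148 CPM in the Ldb1-KO, 145, 145, 136, 173 and 168 CPM in the Lmo2tg and 202, 161, 169 and 187 CPM in the WT libraries at DN2/3. It was not called. The remaining Kmt2b, Ash1l and Rbbp5 were called in no genotype comparison.

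**Figure D4:**
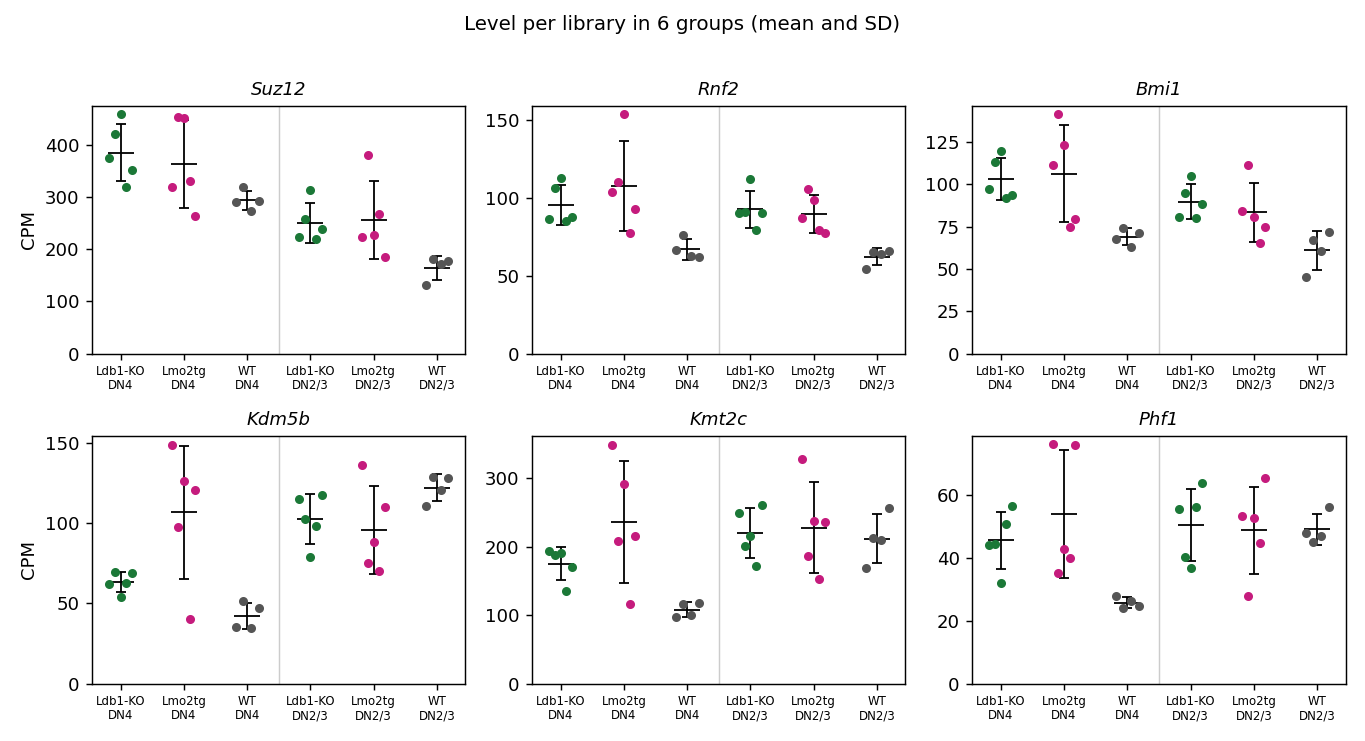
CPM of Suz12, Rnf2, Bmi1, Kdm5b, Kmt2c and Phf1 in each library (points) of the 6 groups, with the mean and SD (lines). Lmo2tg DN4 replicate 4 has 40.4 CPM of Kdm5b and 116 CPM of Kmt2c, near the WT DN4 libraries.

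Kdm5b, a demethylase that removes the methyl mark of the Kmt2 enzymes, had the largest rise of any member in Lmo2tg at DN4. It had 62.1, 69.5, 53.9, 62.8 and 68.6 CPM in the Ldb1-KO, 149, 97.8, 126, 40.4 and 121 CPM in the Lmo2tg and 35.2, 51.3, 34.8 and 47.2 CPM in the WT libraries. The Lmo2tg libraries lay above all others except for replicate 4, which was within the WT range. Kdm5b rose in Lmo2tg (log2 fold 1.34, SE 0.24, adjusted p = 8.8e-05) and was lower in Ldb1-KO than in Lmo2tg (log2 fold -0.75, SE 0.22, adjusted p = 0.023). Every Ldb1-KO library was above every WT library, though that difference was not called. It passed in a fit of the compared groups alone (log2 fold 0.59, adjusted p = 0.0037), in DESeq2 (log2 fold 0.58, adjusted p = 0.048) and with transgenic replicates 1 to 3 only (log2 fold 0.52, adjusted p = 0.041). The Ldb1-KO fall was lost without Ldb1-KO DN4 replicate 3 or Lmo2tg DN4 replicate 1, 3 or 5 and in a fit of the compared groups alone (log2 fold -0.73 to -0.60, adjusted p 0.053 to 0.16). At DN2/3 Kdm5b had 115, 102, 79.2, 97.96 and 118 CPM in the Ldb1-KO, 136, 74.98, 88.1, 69.9 and 110.2 CPM in the Lmo2tg and 111, 129, 121 and 128 CPM in the WT libraries. It was not called against WT or between Ldb1-KO and Lmo2tg.

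Kdm5a rose in Lmo2tg at DN4 (log2 fold 0.62, adjusted p = 0.001). Kdm6b, which removes the PRC2 mark, had 173, 148, 119, 187 and 181 CPM in the Ldb1-KO, 195, 209, 124, 191 and 219 CPM in the Lmo2tg and 158, 140.3, 159.9 and 153 CPM in the WT libraries at DN4. It had 156, 150.2, 124, 212 and 171 CPM in the Ldb1-KO, 209, 152, 162, 204 and 188 CPM in the Lmo2tg and 225, 175, 191 and 209 CPM in the WT libraries at DN2/3. No genotype comparison of Kdm6b was called. Its rise in Lmo2tg against WT at DN4 passed without Lmo2tg DN4 replicate 3, the lowest (log2 fold 0.41, adjusted p = 0.021), and with transgenic replicates 4 and 5 only (log2 fold 0.41, adjusted p = 0.015). Its fall in Ldb1-KO against WT at DN2/3 passed with the replicate block (log2 fold -0.35, adjusted p = 0.047). The interval of its Lmo2tg difference was -0.03 to 0.62 at DN4 and -0.45 to 0.19 at DN2/3.

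Both DNA methyltransferases were lower in Ldb1-KO than in Lmo2tg at DN4, and neither was called in Lmo2tg against WT. Dnmt3a had 199, 186, 178, 213 and 177 CPM in the Ldb1-KO, 254, 240.3, 243, 197 and 232 CPM in the Lmo2tg and 221, 234, 215 and 217 CPM in the WT libraries. Lmo2tg replicate 4 lay within the Ldb1-KO range and the other Lmo2tg libraries above it. Dnmt3a was lower in Ldb1-KO than in Lmo2tg (log2 fold -0.29, SE 0.07, adjusted p = 0.0089) and than in WT (log2 fold -0.22, SE 0.08, adjusted p = 0.036). The first call was lost without Ldb1-KO DN4 replicate 5 and in a fit of the compared groups alone (log2 fold -0.27 to -0.24, adjusted p 0.053 to 0.19), and the second without Ldb1-KO DN4 replicate 2, 3 or 5 or WT DN4 replicate 1, 2 or 3, with library totals alone and with no filter on low counts (log2 fold -0.25 to -0.16, adjusted p 0.05 to 0.15). Dnmt3b had 31.2, 31.3, 41.7, 47.9 and 32.5 CPM in the Ldb1-KO, 34.2, 49.5, 55.6, 61.9 and 64.6 CPM in the Lmo2tg and 50.2, 59.2, 65.8 and 55.4 CPM in the WT libraries. The Ldb1-KO libraries were below all WT libraries and overlapped with Lmo2tg. It was lower in Ldb1-KO than in Lmo2tg (log2 fold -0.53, SE 0.14, adjusted p = 0.0091) and than in WT (log2 fold -0.64, SE 0.14, adjusted p = 0.0021). The call against Lmo2tg was lost in a fit of the compared groups alone and with transgenic replicates 1 to 3 only (log2 fold -0.50 to -0.40, adjusted p 0.086 to 0.16). Of the 101-base stretches of Dnmt3b transcripts, 4.4% also occur in Dnmt3c, where counts could be split.

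At DN2/3 Dnmt3a had 194, 178, 174, 196 and 184 CPM in the Ldb1-KO, 238, 220.1, 215, 192 and 204 CPM in the Lmo2tg and 193, 197, 180.2 and 199.6 CPM in the WT libraries. Dnmt3b had 90.4, 95.5, 96.98, 111 and 81.2 CPM in the Ldb1-KO, 115, 105, 117, 112 and 118 CPM in the Lmo2tg and 109, 102, 106 and 101 CPM in the WT libraries. Neither was called in a genotype comparison at that stage, but the fall of Dnmt3a in Ldb1-KO against Lmo2tg passed in 4 alternatives, DESeq2 among them (log2 fold -0.20, adjusted p = 0.042).

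Tet2, the Tet gene most often mutated in blood cancers, had the largest change of any member at DN2/3. At DN4 it had 25.8, 24.3, 22.2, 16.3 and 22.02 CPM in the Ldb1-KO, 13.8, 11.9, 33.4, 4.31 and 8.41 CPM in the Lmo2tg and 12.6, 16.1, 12.2 and 14.3 CPM in the WT libraries. Lmo2tg libraries spanned from below to above both other groups, and no genotype comparison was called with all libraries. The difference between Ldb1-KO and Lmo2tg (log2 fold 0.62, SE 0.35, adjusted p = 0.27) passed without Lmo2tg DN4 replicate 3, the highest (log2 fold 1.20, adjusted p = 0.0097), and with transgenic replicates 4 and 5 only (log2 fold 1.60, adjusted p = 0.0034). With those replicates Lmo2tg was also lower than WT (log2 fold -1.13, adjusted p = 0.0039), and in a fit of the compared groups alone Ldb1-KO was higher than WT (log2 fold 0.68, adjusted p = 0.0024). Replicates 4 and 5 were the lowest Lmo2tg DN4 libraries for Tet2, and their split from the others was chosen after seeing the data. Passes that rest on leaving out replicate 3 or on that split are therefore no support for a difference. At DN2/3 Tet2 had 28.4, 28.8, 28.1, 19.2 and 30.2 CPM in the Ldb1-KO, 4.21, 4.92, 15.5, 5.35 and 6.65 CPM in the Lmo2tg and 26.7, 33.95, 31.2 and 31.1 CPM in the WT libraries. Every Lmo2tg library was below every other library, though Lmo2tg replicate 3 stood above the other Lmo2tg libraries. Tet2 fell in Lmo2tg (log2 fold -2.06, SE 0.38, adjusted p = 0.00015) and was higher in Ldb1-KO than in Lmo2tg (log2 fold 1.87, SE 0.36, adjusted p = 0.00055), while Ldb1-KO differed from WT by -0.19 (95% interval -0.95 to 0.57). Both DN2/3 calls held in every alternative run. The summed level of 10 myeloid markers moved the same way at DN2/3, with 20.9 to 31.9 CPM in Ldb1-KO, 4.398 to 12.4 CPM in Lmo2tg and 18.1 to 25.1 CPM in WT, and its part in the Tet2 difference was not tested. The Tet2 window holds 51 CpG and neither motif.

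At DN4 Tet3 had 164, 144, 144, 150.5 and 129 CPM in the Ldb1-KO, 178, 162, 154, 149.7 and 172 CPM in the Lmo2tg and 148, 152, 153 and 153 CPM in the WT libraries. It was not called. At DN2/3 it had 179, 174, 158, 172 and 155 CPM in the Ldb1-KO, 195, 152, 161, 174 and 185 CPM in the Lmo2tg and 203, 226, 194 and 224 CPM in the WT libraries. It was lower than WT in Lmo2tg (log2 fold -0.29, SE 0.08, adjusted p = 0.0084) and in Ldb1-KO (log2 fold -0.34, SE 0.08, adjusted p = 0.0085). Lmo2tg overlapped with WT through replicate 1 only, and Ldb1-KO did not overlap with WT. Tet1 had 40.7, 49.1, 50.2, 42.5 and 33.1 CPM in the Ldb1-KO, 62.997, 55.5, 81.97, 38.6 and 49.9 CPM in the Lmo2tg and 34.8, 44.8, 27.5 and 30.9 CPM in the WT libraries at DN4. Lmo2tg replicate 3 was the highest, and Tet1 rose in Lmo2tg (log2 fold 0.74, SE 0.18, adjusted p = 0.0013). Tet1 had 52.2, 62.2, 58.7, 48.7 and 47.8 CPM in the Ldb1-KO, 63.3, 58.6, 61.7, 54.1 and 51.2 CPM in the Lmo2tg and 42.5, 72.6, 54.4 and 55.4 CPM in the WT libraries at DN2/3. All groups overlapped there.

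Between stages, 9 members were higher and 8 lower at DN4 than at DN2/3 in Ldb1-KO (36.2%, background 28.1% of all genes, 12.3% higher and 15.8% lower). In Lmo2tg 2 were higher and 3 lower (10.6%, background 15.4% of all genes, 8.32% higher and 7.04% lower), and in WT 12 and 15 (57.4%, background 46% of all genes, 21.1% higher and 24.8% lower). Same-numbered libraries of the stages deviated together, a pairing that the fit behind these counts leaves out. The correlations ran from 0.289 to 0.531 in Ldb1-KO, 0.513 to 0.65 in Lmo2tg and 0.153 to 0.332 in WT. The shares above therefore do not rank the genotypes by the extent of stage change. Stage values below come from the fit without the pairing unless another is named. With the replicate number as a block the counts became 11 higher and 13 lower in Lmo2tg, 11 and 14 in Ldb1-KO and 12 and 20 in WT. The share of all genes called with the block is not given here. The block counts therefore have no background and are not to be read against the percentages above. Without a block the Lmo2tg calls were 3 in all without Lmo2tg DN2/3 replicate 1 or 5 or DN4 replicate 2, 10 without DN2/3 replicate 2 and 14 without DN4 replicate 4. With library totals alone the WT split became 8 higher and 19 lower, while the median of all genes moved to -0.19 from -0.06 on the log2 scale, and upper-quartile factors gave 8 higher and 16 lower.

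In WT, 5 of the 6 PRC2 core genes were higher at DN4 and Ezh1 lower, where 21.1% of all genes were higher and 24.8% lower. Ezh2 rose by 0.87 (SE 0.15, adjusted p = 6.5e-05) and Suz12 by 0.83 (SE 0.18, adjusted p = 0.00075), whereas Ezh1 fell (log2 fold -1.32, SE 0.17, adjusted p = 2.3e-06). The same directions and calls appeared in Ldb1-KO, where Ezh2 was 0.74 and Ezh1 -0.75 on the log2 scale (adjusted p = 0.00023 and 0.00065). In Lmo2tg, Suz12 alone among the core passed in the fit without the block (log2 fold 0.50, SE 0.16, adjusted p = 0.038). The Suz12 call was lost without Lmo2tg DN2/3 replicate 1, 3, 4 or 5 or Lmo2tg DN4 replicate 2 or 3, with no filter on low counts, in a fit of the compared groups alone and with transgenic replicates 1 to 3 only (log2 fold 0.41 to 0.56, adjusted p 0.052 to 0.25). It held with the block (log2 fold 0.52, adjusted p = 0.00047). With the block Ezh2 (log2 fold 0.31, adjusted p = 0.004), Eed (log2 fold 0.19, adjusted p = 0.013) and Ezh1 (log2 fold -0.22, adjusted p = 0.029) were called in Lmo2tg as well; values of Rbbp4 and Rbbp7 with the block are not given here. In the fit without the block, 14 of 18 proliferation genes were higher at DN4 in Ldb1-KO, 2 in Lmo2tg and all 18 in WT. Of all genes, 12.3%, 8.32% and 21.1% were higher in the same order. Counts of the proliferation genes with the block are not given here. Whether these genes bear on the PRC2 differences was not tested.

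Phf19 rose in Ldb1-KO (log2 fold 1.08, SE 0.25, adjusted p = 0.0024) and in WT (log2 fold 1.58, SE 0.29, adjusted p = 9.9e-05) and was not called in Lmo2tg. Jarid2 rose in Ldb1-KO (log2 fold 0.40, SE 0.10, adjusted p = 0.0038) and in Lmo2tg (log2 fold 0.60, SE 0.10, adjusted p = 0.00019), with WT at 0.07. Dnmt3b fell at DN4 in all 3 genotypes, with log2 fold -1.36, SE 0.14, adjusted p = 9.2e-08 in Ldb1-KO, log2 fold -1.09, SE 0.14, adjusted p = 9.5e-06 in Lmo2tg and log2 fold -0.86, SE 0.15, adjusted p = 7.7e-05 in WT. Kmt2a fell in all 3 as well, with -0.96, -0.75 and -1.17 in the same order (adjusted p = 0.00038, 0.0063 and 7.5e-05). Kdm5b fell in Ldb1-KO (log2 fold -0.69, SE 0.22, adjusted p = 0.021) and in WT (log2 fold -1.53, SE 0.25, adjusted p = 3.7e-05) and was not called in Lmo2tg; the Ldb1-KO call was lost without Ldb1-KO DN2/3 replicate 1 or 5 or Ldb1-KO DN4 replicate 3 (log2 fold -0.65 to -0.64, adjusted p 0.052 to 0.053). In WT the 3 Tet genes also fell, by -0.70 for Tet1, -1.16 for Tet2 and -0.48 for Tet3 as signed log2 folds, and the Tet2 call was lost without WT DN4 replicate 3 (log2 fold -1.08, adjusted p = 0.053). With the block, further genes given by sample passed between stages. In Lmo2tg these were Tet2 (log2 fold 0.87, adjusted p = 0.0026), Bmi1 (log2 fold 0.33, adjusted p = 0.005), Rnf2 and Dnmt3a, all higher at DN4, and Pcgf2 (log2 fold -0.52, adjusted p = 0.015), Cbx2, Cbx6, Cbx7 and Men1, all lower. In Ldb1-KO they were Bmi1 and Dot1l, higher, and Pcgf2 (log2 fold -1.01, adjusted p = 4.9e-05), Kmt2c, Tet1 and Tet3, lower, and in WT Pcgf2 (log2 fold -0.86, adjusted p = 0.00019) and Kdm6b, both lower. Kmt2d was also called in Lmo2tg without the block, lower at DN4. In a fit of the Lmo2tg groups alone, the 5 stage calls there became 1, a lower one. Jarid2 and Kmt2a were among those lost (log2 fold 0.60, adjusted p = 0.0512 and log2 fold -0.75, adjusted p = 0.13).

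**Figure D5:**
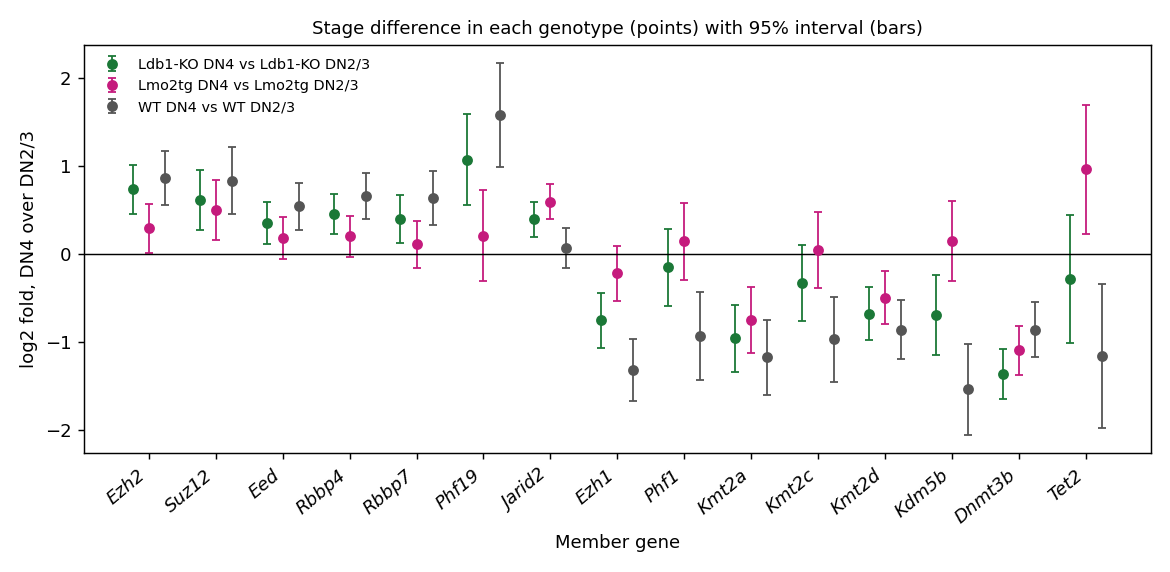
Log2 fold changes at DN4 over DN2/3 in Ldb1-KO, Lmo2tg and WT for 15 members, with 95% intervals as lines. Ezh1 falls by 1.32 in WT, while Ezh2 and Phf19 lie above 0 in all 3 genotypes and Dnmt3b below 0 in all 3.

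The Lmo2tg difference from WT itself depended on the stage for 17 members (36.2%, background 25.6% of all genes, 14.7% higher and 11% lower): 11 with a more positive difference at DN4 and 6 with a more negative one. The largest were Tet2 (log2 fold 2.12, SE 0.54, adjusted p = 0.0076), Kdm5b (log2 fold 1.69, SE 0.33, adjusted p = 0.0014) and Ezh1 (log2 fold 1.10, SE 0.23, adjusted p = 0.0019) on the positive side, and Phf19 (log2 fold -1.37, SE 0.38, adjusted p = 0.012) and Cbx2 (log2 fold -0.80, SE 0.20, adjusted p = 0.007) on the negative side. The fit behind these values leaves out the pairing of the stages. With the replicate block, which takes up that pairing, 28 members were called. The share of all genes called with the block is not given here, so the block counts in this paragraph have no background. The count was 10 without WT DN2/3 replicate 2 or WT DN4 replicate 3 and 11 without WT DN2/3 replicate 4 or Lmo2tg DN4 replicate 1, and with library totals alone 12 were positive and 3 negative, with the median of all genes at 0.20 where TMM gave 0.08. For the Ldb1-KO difference from Lmo2tg, 0 members depended on the stage in edgeR (background 1.36%, with 0.132% positive and 1.22% negative), 5 at an unadjusted p under 0.05, 0 in DESeq2 and 7 with the replicate block. Of the genes given by sample, these were Phf19 (log2 fold 0.94, adjusted p = 0.0014) and Ezh2 (log2 fold 0.43, adjusted p = 0.014) with a positive term, and Ezh1 (log2 fold -0.52, adjusted p = 0.0061), Tet2 (log2 fold -1.15, adjusted p = 0.012) and Kdm5b (log2 fold -0.77, adjusted p = 0.016) with a negative one.

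Among 47 further genes of these pathways, 44 were tested. In Lmo2tg against WT, 9 were higher and 12 lower at DN4, and 7 and 4 at DN2/3. These are 47.7% and 25% of the genes tested, below the 52.4% and 29.5% of all genes. In Ldb1-KO against Lmo2tg, 3 were higher and 4 lower at DN4, and 2 and 5 at DN2/3 (15.9% at either stage, against 14.6% and 16.1% of all genes at DN4 and DN2/3). Zbtb38, which binds methylated DNA, rose in Lmo2tg at both stages (log2 fold 2.09, adjusted p = 3.9e-09 at DN4, log2 fold 1.31, adjusted p = 3e-06 at DN2/3) and fell in Ldb1-KO (log2 fold -1.65, adjusted p = 2.6e-07 and log2 fold -1.28, adjusted p = 3.4e-06). Yaf2 and Rybp, the alternative partners of Rnf2 in variant PRC1, both rose in Lmo2tg, Yaf2 with log2 fold 1.18, adjusted p = 3e-05 and Rybp with log2 fold 0.69, adjusted p = 0.00037 at DN4. At DN2/3 Yaf2 showed log2 fold 1.28, adjusted p = 1.5e-05 and Rybp log2 fold 0.59, adjusted p = 0.0025. At DN4 Yaf2 fell in Ldb1-KO against Lmo2tg (log2 fold -0.53, adjusted p = 0.048), a call whose sign depended on the replicates used. Sfmbt2 also rose in Lmo2tg against WT at DN4 (log2 fold 0.90, adjusted p = 0.0015). Foxk2 (-0.75), the NuRD subunit Mbd3 (-0.75) and Paxip1 (-0.70), a partner of Kmt2c and Kmt2d, fell at DN4 in the same comparison, with adjusted p of 5.6e-05, 0.00092 and 0.0003. The histone methyltransferase Nsd1 (-0.45), Mbd5 (-0.45) and the PRC1 subunit Scmh1 (-0.43) fell at DN2/3, with adjusted p of 0.0011, 0.029 and 0.02. Scmh1 (0.64), the DNA repair glycosylase Mbd4 (0.45) and Sfmbt1 (0.35) were higher in Ldb1-KO than in Lmo2tg at DN4, with adjusted p of 0.0017, 0.016 and 0.029. Nsd1 (log2 fold 0.33, adjusted p = 0.016) and the methyl-CpG binder Mbd2 (log2 fold 0.31, adjusted p = 0.025) were higher in Ldb1-KO than in Lmo2tg at DN2/3, and L3mbtl2 (log2 fold -0.62, adjusted p = 0.0061) was lower. Bcorl1 was lower in Ldb1-KO than in Lmo2tg at both stages (log2 fold -0.47, adjusted p = 0.0076 at DN4, log2 fold -0.52, adjusted p = 0.0023 at DN2/3).

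Hoxa genes, well-known Polycomb and Kmt2a targets, were near 0 in Lmo2tg. Their summed level was 10.03 to 34.4 CPM in Ldb1-KO DN4, 0.0445 to 0.244 CPM in Lmo2tg DN4 and 11.6 to 14.5 CPM in WT DN4. At DN2/3 it was 14.7 to 32.9 CPM in Ldb1-KO, 0 to 0.404 CPM in Lmo2tg and 22.4 to 27.6 CPM in WT. Of 11 Hoxa genes 7 were tested, and 6 of these were lower in Lmo2tg than in WT at DN4 and 7 at DN2/3. Of all genes, 23.5% and 14.4% were lower there. All 7 were higher in Ldb1-KO than in Lmo2tg at both stages, where 5.85% of all genes were higher at DN4 and 8.87% at DN2/3. Near 0 in Lmo2tg, these Hoxa genes passed the low-count filter through the other groups. The direction of their counts was thus largely fixed in advance and is no separate test.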

How the data were processed

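RNA of 28 libraries was sequenced as 101-base paired-end reads with the TruSeq RNA V2 kit, per the labels' protocols; this kit does not mark strand. The authors deposited raw read counts per gene, made with STAR 2.5.2a and featureCounts 1.4.6-p3 on mm10, per the submitters' processing notes; the strand setting is not given there. Groups were taken from the sample titles.

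Counts of 14371 genes kept by filterByExpr were fitted in edgeR 4.0.16 (R 4.3.3) with TMM factors and robust quasi-likelihood in 1 model of 6 groups, with 11 contrasts and Benjamini-Hochberg adjustment over all genes kept. The procedure was tested on simulated data. SE is the log2 fold over the square root of F, and intervals cover 95%. CPM per kb divides by the union of exons in GENCODE (GRCm38). Totals of 28.1 to 106.9 M counts set the precision. No pair of replicate libraries agreed within counting noise. In stage comparisons every same-numbered pair of libraries correlated over 0.1 (lowest 0.153, highest 0.65), so those numbers pair the samples. In each genotype comparison at least 1 such pair did not correlate over 0.1.

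Members and lists were chosen with earlier results of these data known. Values in every sample are given for 13 core genes and for the called members with the largest folds in each comparison (up to 5 in each direction in the main ones, up to 3 in the others); other pathway genes are named by the same rule, up to 3. Alternatives were DESeq2 1.42.0, other scalings, no low-count filter, fits of the compared groups alone, a replicate block, each library left out and, chosen after seeing the data, transgenic replicates 1 to 3 or 4 and 5 only.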

Additional observations from a re-analysis of the deposited data

Results flagged for a closer look

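Among 168 groups of 4 or 5 libraries (28 genes in 6 groups), 8 held a library far from the others of its group, as judged by its gap over the group's range; chance flags about 1 in 20 groups. In transgenic DN2/3, Tet2 was 19.2 CPM in Ldb1-KO replicate 4, with the others at 28.1 to 30.2 CPM, and 15.5 CPM in Lmo2tg replicate 3, with the others at 4.21 to 6.65 CPM. In WT DN4, Tet3 was 148 CPM in replicate 1 (others 152 to 153), Pcgf2 5.75 CPM in replicate 3 (others 4.79 to 4.92) and Ash2l 124 CPM in replicate 4 (others 147 to 149). In WT DN2/3, Kmt2a was 941 CPM in replicate 4 (others 674 to 690), Ash2l 103 CPM in replicate 4 (others 120 to 123) and Phf19 23 CPM in replicate 1 (others 17.4 to 17.8).

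The difference between Lmo2tg and WT changed with the stage for 17 members, by an interaction term in edgeR without the pairing of the stages. Of all genes, 25.6% were called for that term. As the DN4 minus the DN2/3 log2 fold the term was positive for Tet2 (2.12), Kdm5b (1.69), Ezh1 (1.1), Phf1 (1.08), Kmt2c (1.02), Kmt2e (0.74), Tet1 (0.705), Kdm5a (0.623), Phc3 (0.616), Jarid2 (0.527) and Tet3 (0.391). It was negative for Rbbp4 (-0.459), Rbbp7 (-0.533), Wdr5 (-0.572), Ezh2 (-0.576), Cbx2 (-0.803) and Phf19 (-1.37). Adjusted p ran between 0.00137 for Kdm5b and 0.0497 for Rbbp7. Of 18 proliferation genes, 16 had a negative term and 0 a positive one, where 11% of all genes were negative and 14.7% positive. The part of the proliferation genes in these differences was not tested.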

How the results depend on the processing

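The number of members called kept within 1.5 times its value in the 11 comparisons with RLE, upper-quartile or library-total factors and with no filter on low counts. With DESeq2 it rose to 9 in Ldb1-KO against Lmo2tg at DN2/3. In fits of the compared groups alone it was 1 in Ldb1-KO against Lmo2tg at DN4, 7 in Ldb1-KO against WT at DN2/3, 1 in the Lmo2tg stage comparison and 10 for the stage dependence of the Lmo2tg effect. With the replicate block it was 11 and 10 in Ldb1-KO against Lmo2tg and against WT at DN2/3, 24 in the Lmo2tg stage comparison, and 28 and 7 for the stage dependence of the Lmo2tg and the Ldb1-KO effect. The share of all genes called with the block is not given here. No label states that same-numbered samples of different genotypes belong together, though those of Lmo2tg and Ldb1-KO carry adjoining library names. Correlations between these ran from -0.0753 to 0.338 at DN4 and from 0.0286 to 0.199 at DN2/3. With transgenic replicates 1 to 3 only, Ldb1-KO against Lmo2tg at DN4 had 5, Ldb1-KO against WT at DN2/3 8 and the Lmo2tg stage comparison 11.

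With transgenic replicates 4 and 5 only, Lmo2tg against WT had 15 at DN4 and 7 at DN2/3, Ldb1-KO over Lmo2tg 5 at DN4 and 3 at DN2/3, Ldb1-KO over WT 5 at DN4, the stage comparisons 8 in Ldb1-KO and 1 in Lmo2tg, and the Lmo2tg effect 2. Fewer samples enter these fits. Leaving out each library gave 21 to 30 (DN4) and 9 to 14 (DN2/3) in Lmo2tg against WT, 5 to 13 (DN4) and 2 to 7 (DN2/3) for Ldb1-KO over Lmo2tg, and 6 to 18 and 1 to 4 for Ldb1-KO over WT. It gave 12 to 16 in Ldb1-KO, 3 to 14 in Lmo2tg and 23 to 26 in WT between stages, 10 to 22 for the Lmo2tg effect and 0 to 2 for the Ldb1-KO effect. Where no construction shows it, the cause was not tested.

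Of 137 called gene results, 56 held in every alternative and 81 were lost in at least 1. Yaf2 in Ldb1-KO against Lmo2tg at DN4 reversed to 0.11 with transgenic replicates 4 and 5 only, against -0.53 with all. Of 231 uncalled ones, 73 were called in at least 1.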
